A study of Mus musculus with 3 samples.

Results

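The genes of the cytosolic ribosomal proteins were examined in single-cell transcriptomes of embryonic mouse kidneys. They were taken by symbol, as every row named *Rpl* or *Rps* with a number, together with *Rplp0*, *Rplp1*, *Rplp2* and *Rpsa*, leaving out pseudogene symbols that hold "-ps" and the *Rps6k* kinase genes. This rule found 86 of the 32285 genes in the files. Of these, 77 encode standard proteins of the ribosome, 46 of the large (60S) subunit and 31 of the small (40S) subunit. The other symbols belong to paralogs, which are second copies of a ribosomal protein gene (*Rpl22l1*, *Rps27l*, *Rpl36al*, *Rps27rt*, *Rpl39l*, *Rpl3l*, *Rpl10l*), and to *Rpl7l1* and *Rps19bp1*, which are not standard ribosomal proteins, so the name of the set does not hold for every symbol in it.

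The cytosolic ribosome makes the proteins of a cell from messenger RNA. Each of its proteins is normally present once per ribosome, apart from the acidic stalk proteins, and the messages are among the most abundant in growing cells. Their translation is controlled through a run of pyrimidines at the very 5′ end of the message (the TOP motif), which responds to the mTOR kinase, and surplus RPL5 and RPL11 bind MDM2 and raise p53 when ribosome assembly fails. In the developing kidney, nephron progenitors of the cap mesenchyme divide and differentiate around the branching ureteric epithelium.

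The 3 libraries came from E15.5 kidneys of B6 mice. Enl-WT embryos were *Enl* +/+ *Wt1* GFPCre/+, and Enl-T1 embryos were *Enl* flox-T1/+ *Wt1* GFPCre/+, so that a short in-frame insertion in ENL, a chromatin reader encoded by *Mllt1*, was expressed from 1 allele after recombination in cells with a history of *Wt1* expression. Enl-T1 TDI-11055 embryos had the Enl-T1 genotype, and their mothers received 100 mg/kg of TDI-11055, an inhibitor of the acyl-binding pocket of ENL, by mouth daily from E10.5 to E14.5. All groups lacked 1 functional *Wt1* allele, because the Cre gene replaces it. *Wt1* marks the nephron progenitors and stroma, and the paper describes expression of the Cre as restricted to nephron and stroma. The ureteric epithelium and the endothelium thus lie outside its reported domain. *Enl*-T1 messages were found by the paper in whole Enl-T1 kidneys, but recombination was not measured by lineage. Several embryos were pooled per library and each group was 1 library, so no test between groups was possible, and all intervals are 95% exact intervals that cover counting error only.

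The values are raw counts of unique molecular identifiers (UMIs), 1 per captured message, from the 3′ end, and levels are CPM, UMIs scaled to a common total per library. The libraries held 7186, 6575 and 6453 barcodes for Enl-WT, Enl-T1 and the treated library in this order, of which 5233, 4144 and 2754 passed limits of 1000 to 6000 genes and no more than 10% mitochondrial UMIs. Median depths were 5090, 9391 and 16931.5 UMIs per kept cell, and between 5 and 8 kept barcodes were shared by any 2 libraries. The Enl-T1 TDI-11055 library stood apart: 739 of its kept cells (26.8%) had a mitochondrial share under 1%, against 120 (2.90%) in Enl-T1 and 46 (0.879%) in Enl-WT. The differences by lineage, some values of nephron classes, the genes named for it and most pathway lists are given also without these cells. The stromal classes and the mitochondrial ribosomal protein genes are not. The share of cells in which *Xist* but no Y-linked gene was seen was 26.5%, 73.3% and 35.1%. *Mllt1* had a log2 ratio of -0.59 in Enl-T1 over Enl-WT, which does not check the genotype, since 3′ counts do not see the insertion. Clusters were assigned to nephron, stroma, ureteric epithelium and endothelial lineages by their markers. In Enl-WT the nephron lineage held most *Six2* (60.6 CPM, at most 4.76 elsewhere), the stroma *Col1a1* (954.5, at most 13.3), the ureteric epithelium *Calb1* (1098.5, at most 52.8) and the endothelium *Cdh5* (810.9, at most 5.86).

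Ribosomal protein genes took a larger share of the UMIs in both Enl-T1 libraries, untreated and treated, than in the wild type, in each of the 4 lineages. In the nephron the median share per cell was 17.9% in Enl-WT (interquartile range over cells 15.1 to 20.2%), 32.0% in Enl-T1 (28.1 to 35.4%) and 31.7% in the treated library (28.0 to 35.2%). In the stroma the medians were 16.2%, 25.8% and 25.5%, and in endothelial cells 17.4%, 28.4% and 28.2%. The ureteric epithelium had the lowest median in each library, with 15.2%, 22.9% and 25.1%. In all 4 lineages the interquartile range of the Enl-T1 cells lay above that of the Enl-WT cells, whereas the ranges of untreated and treated Enl-T1 cells overlapped. Of the 83 genes with at least 5 CPM on average, 81, 76, 74 and 74 had a higher level in Enl-T1 in nephron, stroma, ureteric epithelium and endothelium, where 23.4%, 28.5%, 26.9% and 28.1% of all genes did.

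**Figure D1:**
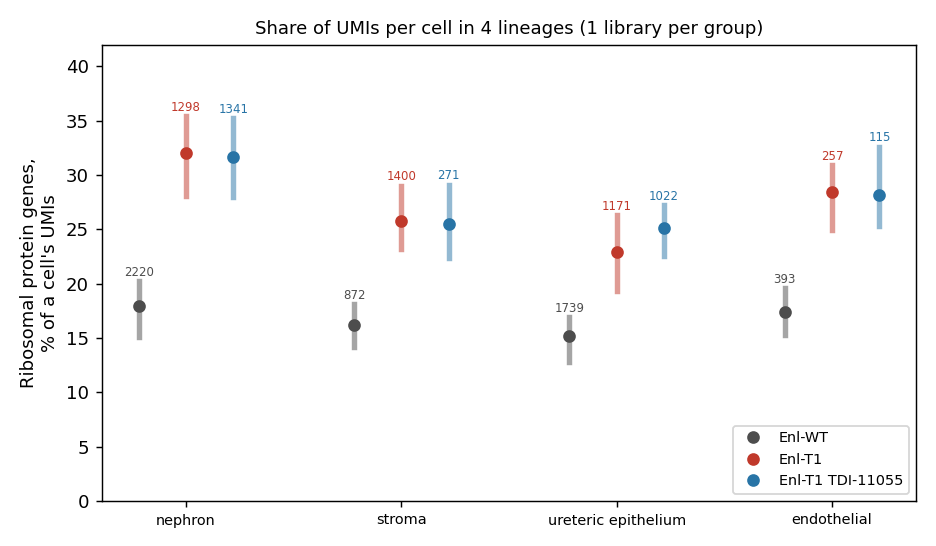
Share of a cell's UMIs from ribosomal protein genes (vertical axis, %) in 4 lineages and 3 libraries. Points are medians over cells, bars the interquartile range, and numbers the cells. Every Enl-WT median lies between 15.2 and 17.9%, and every other median between 22.9 and 32.0%.

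Over summed UMIs, the share of Enl-T1 exceeded that of Enl-WT by 14.2 percentage points in the nephron, 10.4 in endothelial cells, 9.51 in the stroma and 7.87 in the ureteric epithelium, a mean of 10.51. The counting interval of any lineage's share was narrower than these differences: in the Enl-T1 endothelium it ran from 27.51 to 27.61%. The nephron had the largest difference and the ureteric epithelium the smallest. The nephron total included clusters that no marker list named, with 226 of 2220 cells in the wild type, 475 of 1298 in untreated and 211 in treated Enl-T1, and median shares of 21.1%, 35.0% and 34.1%. Haemoglobin genes led 1 of these clusters throughout (27, 68 and 49 cells). In a larger one (159, 201 and 147 cells) *Hbb-y* and *Hba-x* ranked first, ahead of *Saa1* and *Bmper*. The remaining one was led by *Sst* and *Akap12* (40, 206 and 15 cells). Without the unnamed clusters the nephron difference was 13.4 points. From Enl-T1 to Enl-T1 TDI-11055 the share fell by 1.15 points in the nephron and by 1.16 in the stroma, and was 1.97 points higher in the ureteric epithelium and 0.401 higher in the endothelium, a mean of 0.01. Without the unnamed clusters this nephron difference was -0.361 points in place of -1.15. Without the cells of low mitochondrial share the 4 lineage differences, in the order nephron, stroma, ureteric epithelium and endothelium, were -2.18, -1.52, 1.86 and 0.312 points.

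Depth and the mixture of sexes differed between the libraries, and the share was therefore read within cells of like depth, sex and cell cycle; their part in the result was not tested. Among cells with 5000 to 10000 UMIs, the nephron shares were 17.4% in the wild type, 32.7% in untreated and 35.5% in treated Enl-T1, and the ureteric epithelium shares 14.7%, 24.2% and 26.3%. Enl-T1 was above Enl-WT in these cells too. The median depth was 5090 UMIs in Enl-WT and 9391 in Enl-T1, so the window held unlike parts of the libraries. The Enl-T1 TDI-11055 nephron cells of this depth had a median mitochondrial share of 0.158%, against 6.05% in Enl-T1, so at this depth the treated library is represented mainly by its low-mitochondrial cells. In cells with *Xist* only, the median shares were 16.6%, 26.5% and 26.2%, and in cells with Y-linked UMIs only 16.1%, 26.5% and 26.8%. Within proliferating nephron cells (at least 2 of 5 cycle genes detected after each cell was thinned to 2000 UMIs) they were 17.5%, 29.0% and 32.4%, and within the other nephron cells 18.3%, 33.0% and 31.3%. The proliferating cells of the treated library had a median mitochondrial share of 0.362%, against 5.10% in untreated Enl-T1, and were not read again without the cells of low share. Barcodes removed by the filter had medians of 5.09%, 12.6% and 16.7%.

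Class names ("-like") come from marker genes, none of which is a ribosomal protein gene. Within the nephron, the medians of the named classes spread more widely in Enl-WT than in Enl-T1 only because of the podocyte-like cells. Among the other named classes the spread, in percentage points, was wider in Enl-T1. In Enl-WT the cells named for self-renewing progenitors (NP1-like, 696 cells) had a median share of 19.8%, those named for committed progenitors (NP2-like, 216 cells) 17.7%, distal tubule and loop of Henle-like cells (598) 16.7% and podocyte-like cells (220) 10.2%. Podocytes are the filtering cells of the glomerulus and no longer divide. In Enl-T1 the corresponding medians were 31.6%, 27.3%, 25.5% and 26.2%, with 592, 49, 109 and 40 cells. Of the NP1-like clusters, only that of 315 Enl-WT and 150 Enl-T1 cells had NP1 markers among its 10 leading genes. Its medians were 20.7% and 34.5%. The other NP1-like clusters had 0 such markers and were led by cell-cycle genes, so the class mixes states in unlike proportions. Proximal tubule-like cells had an interquartile range of 12.6 to 19.6% in Enl-WT, while the 33 such cells of Enl-T1 had a median of 31.4%, close to its NP1-like cells. The proximal tubule-like class was formed by 2 clusters, which held 120 and 144 of its cells in the wild type, and 25 and 8 in untreated Enl-T1. The first had 0 of the class markers among its 10 leading genes. The median went from 19.3 to 31.2% in the first cluster and from 13.7 to 35.8% in the other. The 40 podocyte-like cells of Enl-T1 thus stood close to its NP2-like and distal cells, where those of Enl-WT stood lowest.

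**Figure D2:**
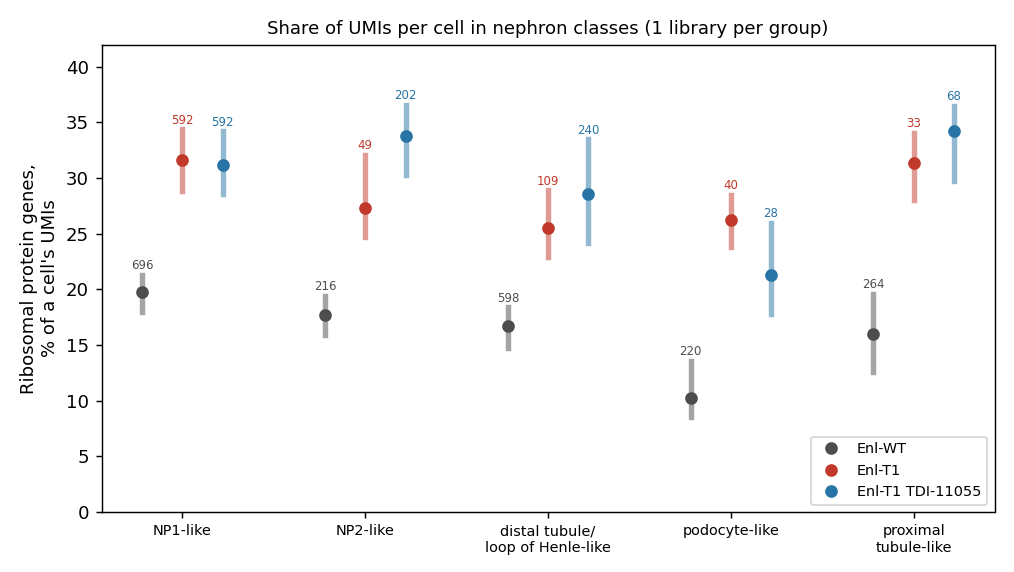
Share of a cell's UMIs from ribosomal protein genes (vertical axis, %) in 5 nephron classes of 3 libraries. Points are medians over cells, bars the interquartile range, and numbers the cells. Podocyte-like cells are at 10.2% in the wild type, 26.2% in untreated and 21.3% in treated Enl-T1.

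In podocyte-like cells the median log2 ratio of Enl-T1 over Enl-WT over 83 ribosomal protein genes was 1.25, against -0.23 over all genes, and 79 of the 83 were at least 1.4-fold higher, where 24.0% of all 10876 genes were. In NP1-like cells the median was 0.57 and 50 of 83 passed that fold, against 8.52% of all genes. In proximal tubule-like cells the median was 0.93 and 69 of 83 passed it, against 18.8% of all genes. The 28 podocyte-like cells of Enl-T1 TDI-11055 had a median share of 21.3%, the median log2 ratio over Enl-T1 was -0.33, and 6 of the 83 genes were at least 1.4-fold lower, where 21.2% of all genes were. In the other named nephron classes it was -0.03 in NP1-like, 0.22 in NP2-like, 0.10 in distal and 0.04 in proximal tubule-like cells. Without the cells of low mitochondrial share these 4 medians were -0.07, 0.05, 0.01 and -0.01, and that of podocyte-like cells was -0.33. These are single libraries with few podocyte-like cells, and differences between classes were not tested. Of the NP2-like cells in Enl-T1 TDI-11055, 154 of 202 had a mitochondrial share under 1%. Without such cells the median share was 28.4% in the NP2-like class in place of 33.8%, and 20.9% in the podocyte-like class.

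In the stroma the named classes had a narrower spread. Enl-WT medians ran from 14.8% (ureteric stroma-like, 46 cells) to 17.4% (*Foxd1* stroma-like, 179 cells), and Enl-T1 medians from 25.5% (renin and mesangial-like, 96 cells) to 28.5% (medullary stroma-like, 208 cells). In Enl-T1 TDI-11055 they ran from 24.4% (renin and mesangial-like, 22 cells) to 26.5% (medullary stroma-like, 14 cells). No stromal class approached the low share of the Enl-WT podocyte-like cells.

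For single genes, UMIs were summed per lineage and library, expressed as CPM, and averaged over the 4 lineages with equal weight. CPM here counts messages and is not divided by transcript length. Of the 86 genes, 83 had a mean of at least 5 CPM. The other members were the paralogs *Rpl10l*, *Rpl39l* and *Rpl3l*: *Rpl10l* had 0 UMIs in the 4 lineages of every library, which allows up to 0.0937, 0.0679 and 0.0693 CPM over the kept cells, *Rpl39l* had 1, 1 and 3 UMIs, and *Rpl3l* had 1, 3 and 1. *Rpl10l* and *Rpl39l* are known for their use in the testis and *Rpl3l* for its use in heart and skeletal muscle.

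The standard genes lay within a narrow band, apart from a few in Enl-WT. Their median was 2201.4 CPM in the wild type, 3264.2 in untreated and 3390.5 in treated Enl-T1. The lowest was *Rpl10* at 18.9 CPM in Enl-WT, whereas in the other libraries it was *Rpl4*, at 1007.5 and 1286.3. In Enl-WT 5 of the 77 were under 500 CPM, and in the other libraries 0 were. Among the genes of highest mean level were *Rpl13*, *Rpl23*, *Rpl41* and *Rps27a*. *Rpl13* was at 4760.5, 5487.2 and 5532.2 CPM, and was the most abundant in Enl-WT. *Rpl23* was at 3368.3, 5905.2 and 5346.0 CPM, *Rpl41*, which encodes a very short basic peptide, at 1684.5, 6208.8 and 6181.9, and *Rps27a*, which encodes ubiquitin fused to a ribosomal protein, at 3419.1, 5229.0 and 5036.3. All 4 were lowest in Enl-WT, by margins that ran from a log2 ratio of 0.20 (*Rpl13*) to 1.88 (*Rpl41*) in Enl-T1.

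**Figure D3:**
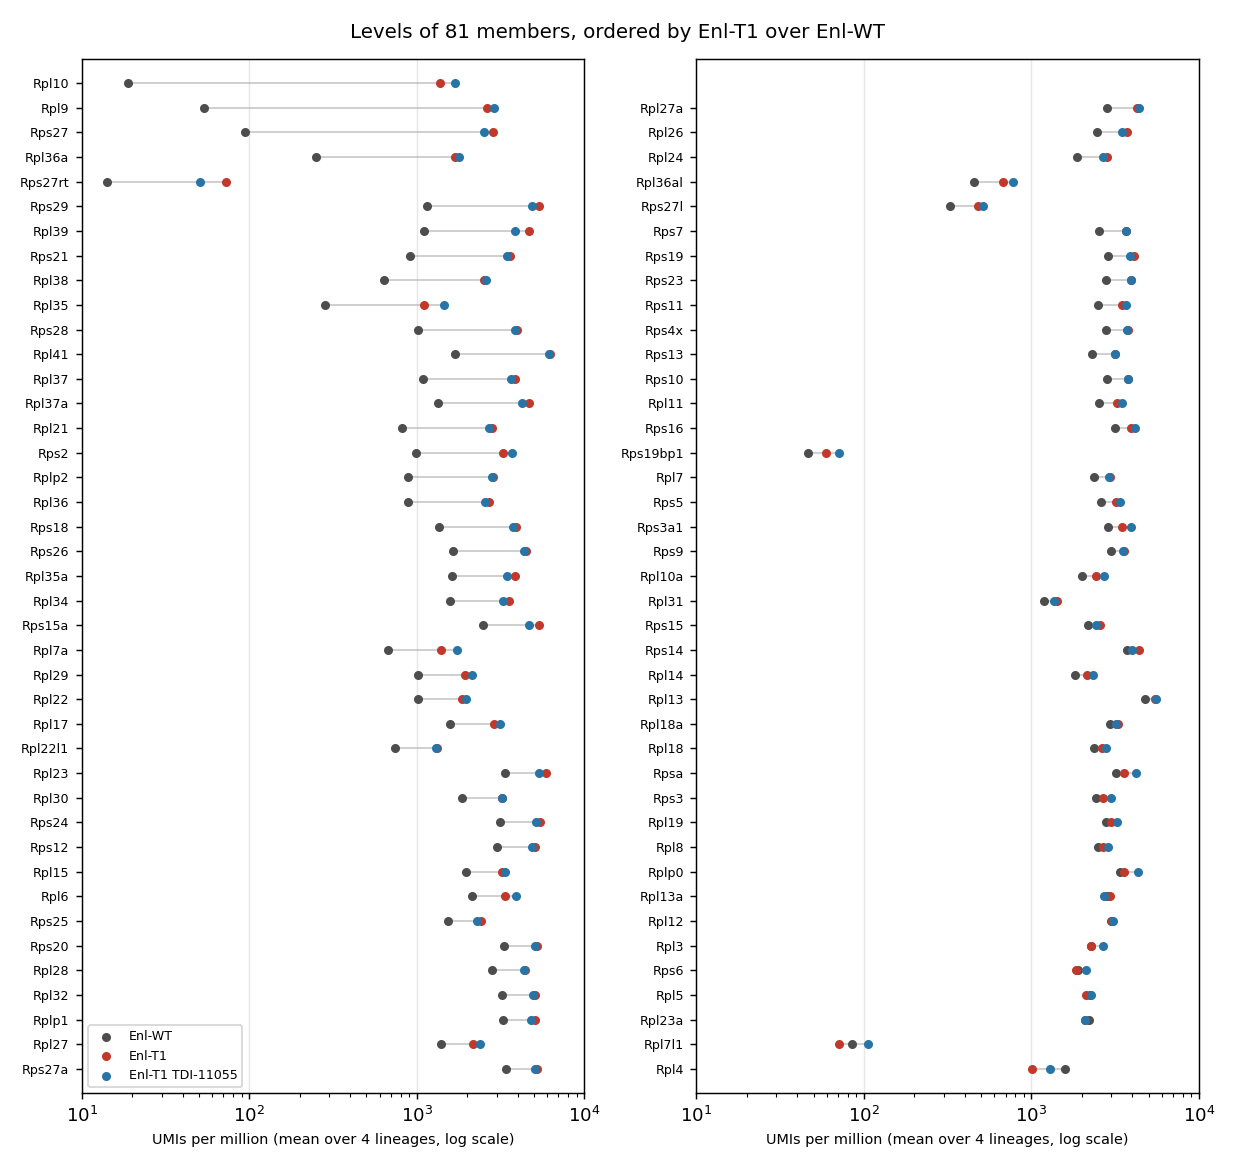
Levels of 81 genes in CPM (horizontal axis, log scale, mean over 4 lineages), 1 point per library, ordered by the ratio of Enl-T1 to Enl-WT. *Rpl10*, *Rpl9* and *Rps27* are under 100 in Enl-WT and over 1000 in both other libraries.

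Between Enl-T1 and Enl-WT the genes did not differ by 1 common factor. The ratio was taken as log2 of (CPM + 1), averaged over the lineages. The median over the 83 genes was 0.60, against -0.32 over all 10876 genes of at least 5 CPM. 50 of the 83 were at least 1.4-fold higher in Enl-T1, where 4.65% of all genes were, and 1 was at least 1.4-fold lower, where 35.1% of all genes were. The interquartile range over the genes was 0.24 to 1.29. 35 of the 83 were at least 1.4-fold from the set's median of 0.60. Of all genes 85.5% lay that far from the same 0.60, but their own median was -0.32, so nothing is read from this share. The large subunit genes had a median of 0.64 (49 genes) and the small subunit genes 0.52 (34 genes), and over the summed UMIs of the nephron, large over small was 1.20 in the wild type, 1.17 in untreated and 1.20 in treated Enl-T1. Over the members with no shared sequence stretch, as defined further on, it was 1.23, 1.09 and 1.12, and it was lower in both Enl-T1 libraries than in the wild type in each of the 4 lineages.

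*Rpl10*, *Rpl9* and *Rps27* differed by far more than the other members. *Rpl10* (X chromosome, chrX:74270812-74273135, + strand), whose protein joins the 60S subunit last, was at 20.8, 21.0, 16.7 and 17.0 CPM in Enl-WT nephron, stroma, ureteric epithelium and endothelium. In Enl-T1 it was at 1379.2, 1392.2, 1209.5 and 1520.9 CPM, and in Enl-T1 TDI-11055 at 1725.3, 1498.5, 1643.2 and 1885.9. No lineage of Enl-WT came near any lineage of the other libraries. The nephron ratio was 66.2 (58.9 to 74.6).

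*Rpl9* (chr5:65388364-65391444, − strand), a large subunit protein, was at 49.8, 57.3, 44.9 and 62.4 CPM in the Enl-WT lineages, at 2931.1, 2545.9, 2230.8 and 2746.0 in Enl-T1 and at 3140.1, 2615.8, 2732.3 and 2984.4 in Enl-T1 TDI-11055. *Rps27* (chr3:90212522-90213651, − strand), a small subunit protein with a zinc finger, was at 96.5, 93.7, 90.8 and 97.1 CPM in Enl-WT and at 3006.5, 2839.2, 2581.2 and 2952.7 in Enl-T1. The mean log2 ratios were 6.12 for *Rpl10*, 5.59 for *Rpl9* and 4.89 for *Rps27*, and the 4 lineages ranged from 5.98 to 6.40, from 5.44 to 5.85 and from 4.81 to 4.95. *Rpl36a* followed at 2.72 (chrX:134585654-134588062, + strand; 251.3 and 1678.6 CPM as means) and *Rps27rt*, an intronless copy of *Rps27* with its own row, at 2.28 (14.2 and 73.0 CPM). Of all genes, 4 were at least 16-fold higher in each of the 4 lineages (0.0368%), and 3 of them were *Rpl10*, *Rpl9* and *Rps27*. The other gene was *Pam16*, which encodes a subunit of the mitochondrial protein import motor and had 10 UMIs in Enl-WT and 2918 in Enl-T1. Its ratio exceeded the highest mean log2 ratio (2.76) of genes outside the set with under 30% of shared sequence stretches, as defined further on. At 4-fold, 6 of the 10 genes were ribosomal protein genes (0.0919% of all genes), and at 2-fold 23 of 81 (0.745%). The others at 4-fold included *Rpl36a-ps1* and *Gm10076*, rows that carry sequence of *Rpl36a* and *Rpl41*.

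At the other end were *Rpl4*, *Rpl7l1*, *Rpl23a*, *Rpl5* and *Rps6*. *Rpl4*, a large subunit protein that lines the exit tunnel, was at 1728.8, 1394.7, 1499.2 and 1715.7 CPM in the Enl-WT lineages and at 1219.1, 890.8, 907.1 and 1012.7 in Enl-T1. The lineages of both libraries did not overlap, and its log2 ratio of -0.66 was the lowest of the set. *Rpl7l1*, an *Rpl7*-like protein of ribosome assembly, was at 84.6 and 71.0 CPM (-0.26). *Rpl23a* (-0.10), *Rpl5* (-0.08) and *Rps6* (-0.04), whose protein is the main target of S6 kinase, were above 0 in the nephron (*Rpl5*: 2438.3 and 2643.5 CPM) and below it in other lineages. Under median-of-ratios scaling, which brings the median of all genes from -0.32 to -0.02, these 3 genes were at 0.23, 0.24 and 0.28 and *Rpl7l1* at 0.07, so their direction depends on the scaling, while *Rpl4* stayed below 0 (-0.33). Under that scaling 82 of the 83 genes were above 0, where 48.2% of all genes were, 68 were at least 1.4-fold higher, where 12.4% of all genes were, and 0 were at least 1.4-fold lower, where 12.8% were.

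**Figure D4:**
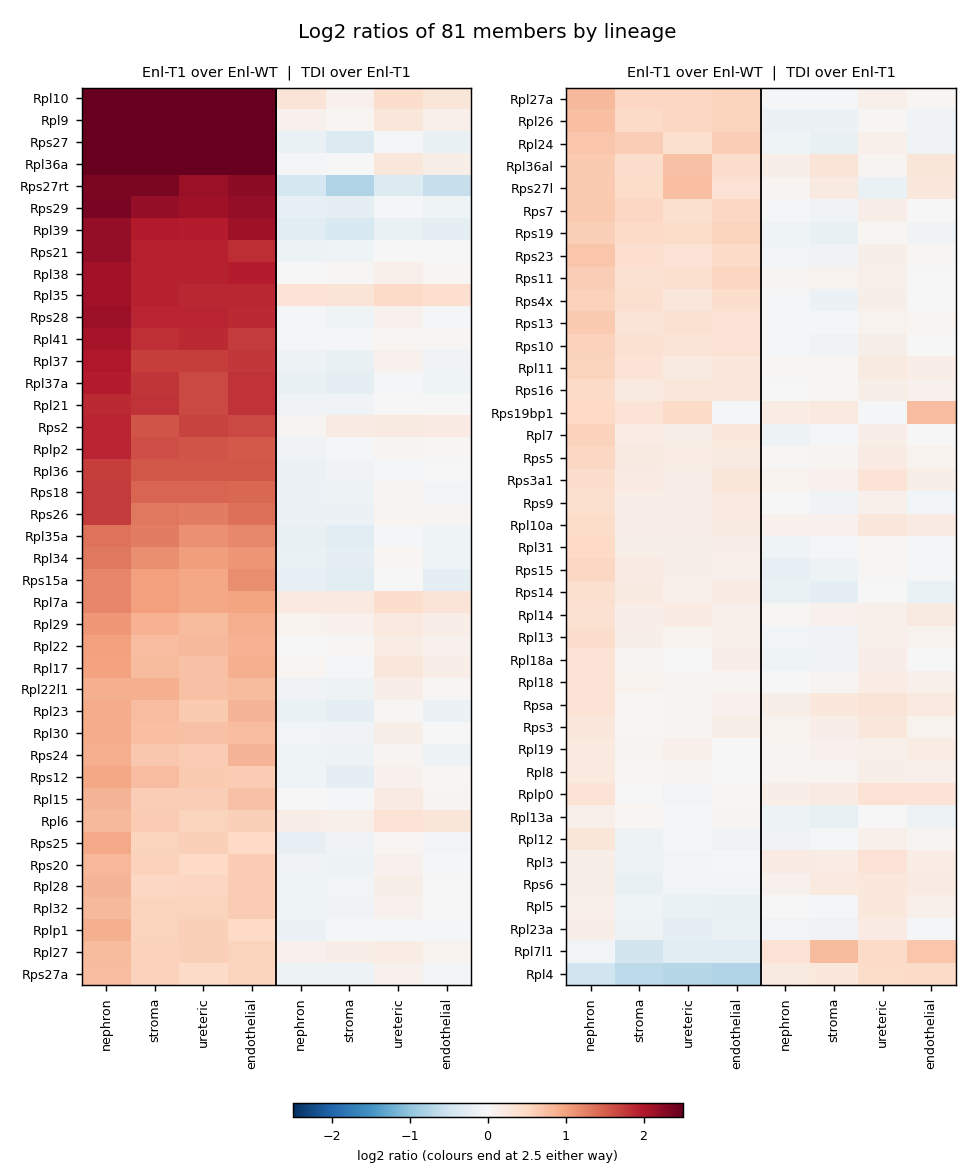
Log2 ratios of 81 genes (rows, ordered by the mean ratio of Enl-T1 over Enl-WT) in nephron, stroma, ureteric epithelium and endothelium (columns), for Enl-T1 over Enl-WT (left of each line) and Enl-T1 TDI-11055 over Enl-T1 (right). Red is higher and blue lower in the library named first. Colours are capped, so *Rpl10* to *Rpl36a* look alike. The second comparison is paler, from -0.53 (*Rps27rt*) to 0.58 (*Rpl7l1*) in the mean.

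The genes with the largest ratios carry sequence that another gene in the files also carries. For each gene, the share of the 60-base stretches in the last 400 bases of its coding transcripts that also occur in transcripts of another listed gene was computed from GENCODE M21. It was 100% for *Rpl10*, 56.9% for *Rpl9*, 65.3% for *Rps27*, 72.1% for *Rpl36a* and 90.8% for *Rps27rt*, and 0 for 70 of the 86 genes. The partner rows were *Rpl10-ps3*, *Rpl9-ps6*, *Rps27rt* and *Rpl36a-ps1*, and for *Rpl41* (41.6%) it was *Gm10076*. The last 60 coding bases of *Rpl10*, *Rpl9*, *Rps27*, *Rpl36a* and *Rpl41* are shown, with the stop codon in capitals, because each occurs with 0 differences in the partner row.

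Rpl10: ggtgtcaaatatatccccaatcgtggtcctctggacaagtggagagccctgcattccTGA
Rpl9: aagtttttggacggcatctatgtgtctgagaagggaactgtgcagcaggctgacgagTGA
Rps27: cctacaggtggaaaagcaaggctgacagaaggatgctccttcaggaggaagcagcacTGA
Rpl36a: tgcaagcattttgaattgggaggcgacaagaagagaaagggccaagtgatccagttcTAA
Rpl41: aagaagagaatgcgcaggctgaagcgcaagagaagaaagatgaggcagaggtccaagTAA

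All 9 genes with at least 30% of shared stretches were at least 1.4-fold higher in Enl-T1 (median log2 ratio 2.28, range 1.52 to 6.12). The median over the 67 tested genes with no shared stretch was 0.56 (range -0.66 to 2.22), of which 36 passed 1.4-fold. Among genes outside the set, 115 had at least 30% of shared stretches, with a median of 0.13, against -0.33 over the 10673 with less. The highest ratio was 5.65 among the former and 2.76 among the latter. Leaving out every member with a shared stretch, the mean difference in share between Enl-T1 and Enl-WT was 7.75 percentage points in place of 10.51, so most of it lay in genes with no such stretch. These genes also held most of the share itself: in the nephron 14.6 of 16.6% in Enl-WT and 25.5 of 30.9% in Enl-T1. CellRanger counts a read only when it can be assigned to 1 gene. Read length is stated once for the study and not per library, and the part of shared sequence in the ratios was not tested.

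The UMIs of the partner rows were also added to those of the genes. Reads that could be assigned to both rows are counted in neither, so these sums do not hold them. The sums thus describe the counted reads only, and the part of shared sequence was not tested by them. *Rpl10-ps3* (chr9:50344201-50344968) was at 34.8 CPM in the wild type, 15.8 in untreated and 21.1 in treated Enl-T1, and the sum of *Rpl10* and *Rpl10-ps3* was 53.6, 1391.3 and 1709.3. *Rpl9-ps6* (chr19:32465865-32466578) was at 28.7, 26.4 and 23.1 CPM, and its sum with *Rpl9* was 82.3, 2639.9 and 2891.3. *Rps27* and *Rps27rt* (chr9:114982366-114982739) together were at 108.7, 2917.9 and 2560.9. The log2 ratios of Enl-T1 over Enl-WT for these sums were 4.70, 5.00 and 4.75. *Rpl36a-ps1* (chr14:98993870-98994318) moved with its parent, from 8.95 to 61.4 CPM.

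Transcript length moved with the ratios as well. Among genes of the set with no shared stretch, the 8 with a median transcript length under 500 bases had a median log2 ratio of 1.77, the 30 from 500 to 800 bases 0.56, the 18 from 800 to 1200 bases 0.39, and the 11 of 1200 bases and over 0.08. Genes outside the set had medians of 0.80, 0.20, 0.04 and -0.39 in the same 4 bins. In each bin the median of the ribosomal protein genes lay above that of the other genes of like length, while the ranges overlapped. *Rps29* (2.22), *Rpl39* (2.07), *Rps21* (1.98), *Rpl38* (1.97) and *Rps28* (1.95), which encode some of the smallest ribosomal proteins, had the highest ratios among genes with no shared stretch. *Rps29* was at 1152.0 and 5379.0 CPM in Enl-WT and Enl-T1, and *Rps28* at 1011.2 and 3937.5. The rank correlation of ratio and length was -0.42 across these 67 genes and -0.55 across 10272 other genes, as a description; the genes share libraries and depth. The part of transcript length in the ratios was not tested.

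**Figure D5:**
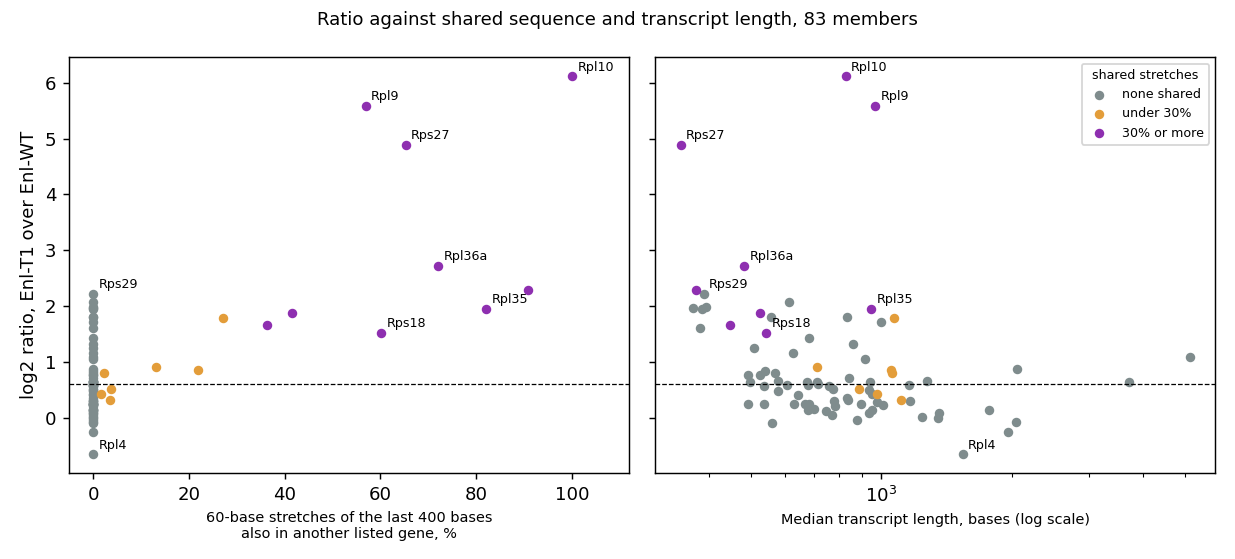
Log2 ratio of Enl-T1 over Enl-WT (vertical axis) against the percentage of 60-base stretches shared with another listed gene (left) and against transcript length (right, log scale) for 83 genes. The dashed line is the median of 0.60. The genes with 30% or more of shared stretches lie between 1.52 and 6.12, and short transcripts lie higher than long ones.

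By role, the stalk, which recruits translation factors to the large subunit, was uneven. *Rplp0*, its base, was at 3369.5, 3590.2 and 4312.2 CPM in the wild type, untreated Enl-T1 and treated Enl-T1 (log2 ratio of Enl-T1 over Enl-WT 0.08). *Rplp1* was at 3252.9, 5062.0 and 4819.9 (0.63) and *Rplp2* at 889.7, 2827.0 and 2810.2 (1.66), so that the ratios of these partners in 1 complex lay far apart. *Rplp2* shares 36.3% of its stretches with *Wdr89*. The partners of the 5S RNA, *Rpl11* (2517.8, 3223.4 and 3477.9 CPM; 0.35) and *Rpl5* (2242.4, 2129.9 and 2253.4; -0.08), were both below the median of the set and below 1.4-fold.

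Of ribosomal proteins that the symbol rule misses, *Fau*, which encodes a small subunit protein fused to a ubiquitin-like domain, was at 2060.7, 3742.8 and 3459.5 CPM (0.86). *Rack1*, a scaffold on the small subunit, was at 2185.1, 2088.5 and 2265.4 (-0.07). Both lay within the range of the members.

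Paralogs were compared with their partners as a share of the UMIs of both. *Rpl22l1*, which also regulates splicing, made up 42.9% of the pair with *Rpl22* in the Enl-WT nephron (42.3 to 43.6), 40.6% in Enl-T1 (40.2 to 41.0) and 39.2% in the treated library (38.8 to 39.5). In the stroma it made up 45.6%, 47.4% and 44.9%, and in the ureteric epithelium 37.8% in Enl-T1 and 37.6% after treatment. The stroma had the highest and the ureteric epithelium the lowest share in every library, and the lineages differed more than the libraries did. Neither gene has a shared stretch. By class, the share in Enl-WT was 41.1% in NP1-like and 48.6% in proximal tubule-like cells (46.9 to 50.4), and in podocyte-like cells it was 46.5% (44.2 to 48.8) in Enl-WT, 42.2% in Enl-T1 and 33.9% (31.1 to 36.9) in the treated library.

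*Rps27l*, a p53-responsive paralog, made up 77.3% of the pair with *Rps27* in the Enl-WT nephron, 14.7% in Enl-T1 and 16.9% in the treated library. Its own level was 324.8, 479.6 and 515.5 CPM (0.56), and the difference in the pair lay in the counts of *Rps27*. *Rpl36al* was at 452.0, 671.7 and 777.2 CPM (0.57) and made up 63.2%, 26.4% and 31.1% of its pair with *Rpl36a* in the stroma, again with the larger difference in *Rpl36a*. *Rps27l* and *Rpl36al* thus stood near the median of the set, and their partners far above it. *Rpl22l1* and *Rpl22* had ratios close to each other (0.83 and 0.87). Without the cells of low mitochondrial share, *Rps27l* made up 16.2% of its pair in the treated nephron, *Rpl36al* 31.0% in the treated stroma, and *Rpl22l1* 39.3% in the treated nephron and 34.0% in the treated podocyte-like cells. Of the other partners, *Rpl3* was at 2276.0, 2267.3 and 2658.4 CPM (-0.01 and, under median-of-ratios scaling, 0.31), *Rpl7* at 2354.9, 2926.7 and 2906.7 (0.30), *Rpl22* at 1011.3, 1861.8 and 1964.3 (0.87), *Rpl39* at 1107.1, 4660.3 and 3867.7 (2.07) and *Rps4x* at 2777.4, 3752.5 and 3732.8 (0.43). *Rps19bp1*, which encodes a regulator of SIRT1 and no ribosomal protein, was at 46.3, 59.3 and 70.7 CPM (0.32).

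Enl-T1 TDI-11055 and Enl-T1 differed little. This comparison shares the Enl-T1 library with the one above. The median log2 ratio of the 83 genes was 0.00, against -0.04 over all genes, and 43 of the 83 were above 0, where 45.8% of all genes were. 1 gene was at least 1.4-fold higher and 1 at least 1.4-fold lower, where 6.56% and 11.8% of all genes were. The same 2 genes were at least 1.4-fold from the median of the set, where 18.4% of all genes lay that far from the same value.

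Those genes were no standard ribosomal protein genes. *Rpl7l1* was at 71.0 CPM in Enl-T1 and 106.2 in the treated library (0.58; 65.0 and 113.2 in the stroma, 84.9 and 109.2 in the nephron), and was higher in all 4 lineages. *Rps27rt* was at 73.0 and 50.5 CPM (-0.53). Next above the median were *Rpl35* (1100.4 and 1448.9 CPM, 0.40), *Rpl4* (1007.5 and 1286.3, 0.35), *Rpl7a* (1401.6 and 1734.5, 0.31), a large subunit protein near the exit tunnel, and *Rpl10* (1375.5 and 1688.2, 0.30). Below it were *Rpl39* (4660.3 and 3867.7, -0.26), *Rps15a* (5331.2 and 4679.3, -0.18) and *Rps27* (2844.9 and 2510.5, -0.18). *Rpl4* thus had 1584.6, 1007.5 and 1286.3 CPM in the order Enl-WT, Enl-T1, Enl-T1 TDI-11055. Without the cells of low mitochondrial share, the values of *Rpl4* (0.35), *Rpl35* (0.37), *Rps27rt* (-0.56) and *Rpl7a* (0.29) were much the same. Those of *Rpl7l1* (0.56), *Rpl10* (0.27), *Rpl39* (-0.28), *Rps15a* (-0.20) and *Rps27* (-0.20) were as well.

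By lineage, the median ratio was -0.05 in the nephron and in the stroma, 0.02 in the endothelium and 0.13 in the ureteric epithelium. In the ureteric epithelium 69 of the 83 genes were above 0, where 50.8% of all genes were, and in the endothelium 50 were, where 42.7% were. In the nephron 31 were, where 49.4% of all genes were, and in the stroma 31 were as well, where 51.1% were. In this comparison the rank correlation with transcript length was 0.50 across the 83 genes and -0.44 across the 10788 other genes with a length, opposite in sign.

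Once the total of the set is taken out, lineages used nearly the same mixture. For each gene, the share of the set's UMIs in 1 lineage was set against the mean of the other 3 within each library. The median absolute log2 difference over the 83 genes was 0.05 to 0.06 in every lineage, and the largest were 0.22 (nephron), 0.26 (stroma), 0.43 (ureteric epithelium) and 0.52 (endothelium). The last 2 were *Rps19bp1*, which is no ribosomal protein gene. These lineages were clustered without the members, but in the same cells, so the values are a description.

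The genes named next were picked for leaning the same way in all 3 libraries, so that agreement is not a result. Of the 83 genes, 28 were above and 27 below in all 3 libraries in the nephron, and 24 and 36 in the endothelium. *Rps26*, whose loss in humans causes Diamond-Blackfan anaemia, was low in the endothelium, with 0.791% of the set's UMIs in Enl-WT against 1.10% in the other lineages, 1.28% against 1.82% in Enl-T1 and 1.32% against 1.73% in the treated library. It was above the other lineages in the stroma (mean log2 difference 0.20) and the nephron (0.16). *Rpl23a* was also low in the endothelium (-0.35) and highest in the nephron (0.22), and *Rpl12* was above the others in the nephron (0.14). *Rpl28* (0.28), *Rps20* (0.25) and *Rps3* (0.19) leaned to the endothelium. *Rpl28* was in turn low in the nephron (-0.17) and the ureteric epithelium (-0.14), together with *Rpl30* (-0.16) and *Rps29* (-0.13) in the nephron and *Rpl34* (-0.19) in the ureteric epithelium.

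*Rpl22l1* leaned to the stroma (0.26) and away from the ureteric epithelium (-0.20). *Rpl24* (0.19) leaned to the stroma too, where *Rpl7* (-0.21), *Rps3* (-0.20) and *Rpl4* (-0.19) were low. *Rpl7* (0.21) and *Rps3a1* (0.17) leaned to the ureteric epithelium. Apart from *Rpl22l1* and *Rps19bp1* these are standard ribosomal protein genes.

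Most lists of genes that work with the ribosome had medians below that of the set. Of 80 ribosome biogenesis genes, 2 were at least 1.4-fold higher and 31 at least 1.4-fold lower in Enl-T1, relative to Enl-WT, close to the 4.65% and 35.1% of all genes, with a median log2 ratio of -0.43 (all genes -0.32). Under median-of-ratios scaling 6 were higher and 8 lower, with a median of -0.10, where 12.4% and 12.8% of all genes were. *Ncl* (nucleolin) was at 1636.5 and 912.4 CPM, *Npm1* (nucleophosmin) at 2562.7 and 2324.1, and *Nop10*, a small subunit of H/ACA snoRNPs, at 156.2 and 288.4. From Enl-T1 to Enl-T1 TDI-11055, 19 of the 80 were at least 1.4-fold higher (6.56% of all genes) and 1 lower (11.8% of all genes), with a median of 0.25. *Ncl* was at 1066.2 and *Npm1* at 2700.4 CPM in Enl-T1 TDI-11055. In this comparison the median was 0.25 over the assembly genes, 0.00 over the ribosomal protein genes and -0.04 over all genes. Without the cells of low mitochondrial share 17 of the 80 were higher, beside 707 of all 10876 genes, and these medians were 0.25, -0.02 and -0.02.

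Of 37 initiation factors, 1 was at least 1.4-fold higher and 8 lower in Enl-T1 (median -0.15), where 4.65% and 35.1% of all genes were. Under median-of-ratios scaling 5 were higher and 3 lower (median 0.17), beside 12.4% and 12.8% of all genes. In the second comparison 5 were higher and 0 lower in Enl-T1 TDI-11055 than in Enl-T1 (median 0.24), where 6.56% and 11.8% of all genes were. *Eif1* was at 1261.6, 1355.1 and 1536.5 CPM, *Eif4a1*, the cap-binding complex helicase, at 662.3, 634.6 and 990.7, *Eif4g2* at 814.3, 494.8 and 458.4, while *Eif3a* had log2 ratios of -1.04 and 0.13. Of 7 elongation factors 0 were higher and 1, *Eef2*, was lower in Enl-T1 (1017.9 and 635.5 CPM), with a median of -0.03, again beside 4.65% and 35.1% of all genes. Under median-of-ratios scaling 1 was higher and 0 were lower (median 0.29), beside 12.4% and 12.8% of all genes. *Eef1a1* was at 5546.3 and 5903.3 CPM, *Eef1b2* at 1348.3 and 1545.8 and *Eef1g* at 1035.8 and 778.2. In the treated library 2 of the 7 exceeded Enl-T1 by 1.4-fold (median 0.27), where 6.56% of all genes did. Without the cells of low mitochondrial share 4 of the 37 and 1 of the 7 did, beside 707 of all 10876 genes.

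Of 10 other TOP messages, 3 were at least 1.4-fold higher in Enl-T1 and 0 lower (median 0.24), where 4.65% and 35.1% of all genes were. Under median-of-ratios scaling 6 were higher and 0 lower (median 0.56), beside 12.4% and 12.8% of all genes. All 3 were small nucleolar RNA host genes, *Gas5* (425.5 and 1028.1 CPM), *Snhg1* and *Snhg8*, while *Tpt1* (5685.9 and 6784.1), *Naca* (1288.8 and 1506.8) and *Btf3* (822.0 and 989.2) were under 1.4-fold. None of the 10 passed 1.4-fold in Enl-T1 TDI-11055 against Enl-T1 (median 0.16), where 6.56% of all genes were higher and 11.8% lower. Without the cells of low mitochondrial share 0 passed it (median 0.15).

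Of 15 regulators of ribosomal protein synthesis, 1 was higher and 6 lower in Enl-T1 (median -0.45), where 4.65% and 35.1% of all genes were. Under median-of-ratios scaling 1 was higher and 3 were lower (median -0.15), beside 12.4% and 12.8% of all genes. *Pdcd4*, an inhibitor of *Eif4a1*, was the higher one (125.4, 207.7 and 134.8 CPM in the 3 libraries). *Akt1* was at 99.8 and 69.0 CPM, *Rps6kb1* (S6 kinase) at 114.2 and 75.3, and *Eif4ebp2* at 97.1 and 80.8. In Enl-T1 TDI-11055, 2 of the 15 were higher than in Enl-T1 and 1 lower (median -0.06), where 6.56% and 11.8% of all genes were. Without the cells of low mitochondrial share 2 were higher and 1 lower (median 0.01). The 18 p53 response genes tested held 0 that were higher and 6 that were lower in Enl-T1 (median -0.23), again beside 4.65% and 35.1% of all genes. Under median-of-ratios scaling 0 were higher and 1 was lower (median 0.08), beside 12.4% and 12.8% of all genes. The p53 response genes held 2 higher and 4 lower in Enl-T1 TDI-11055 than in Enl-T1 (median -0.08), beside 6.56% and 11.8% of all genes. Without the cells of low mitochondrial share they held 2 higher and 4 lower (median -0.06). *Trp53* was at 197.5, 140.8 and 183.2 CPM, *Btg2* at 392.8, 525.9 and 222.8, *Bax* at 140.9, 135.9 and 165.7 and *Plk2* at 161.5, 122.1 and 120.5. The mitochondrial ribosomal protein genes, a list added after the values were seen, had a median of 0.03 in Enl-T1 over Enl-WT (78 genes). Of these, 4 were higher and 1 lower, where 4.65% and 35.1% of all genes were. Under median-of-ratios scaling 26 were higher and 0 lower (median 0.36), beside 12.4% and 12.8% of all genes. In Enl-T1 TDI-11055 over Enl-T1 their median was 0.24, with 3 higher and 0 lower, beside 6.56% and 11.8% of all genes. By median, the mitochondrial ribosomal protein genes lay between the cytosolic set and all genes in the first comparison and above both in the second.

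The TOP motif was looked for at the annotated starts of the genes, since it is the sequence feature by which these messages are known. In RefSeq promoters (GRCm38.p6), a C followed by at least 4 pyrimidines (C or T, gene strand) that begins within 10 bases of the start was found in 33 of 78 promoters of the 66 genes that matched (42.3%), against 24.5% of all 32851 promoters. A run of at least 8 was found in 19.2% against 6.23%. The windows from 15 bases before to 15 after the start are shown for *Rpl15* (chr14:18270972-18271001, − strand), *Rps6* (chr4:86857353-86857382, − strand) and *Rps27* (chr3:90213634-90213663, − strand), with the run in capitals, because they stand for a middling, a low and a high ratio. The annotated start may lie some bases from the true one, and a match is a description only.

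Rpl15: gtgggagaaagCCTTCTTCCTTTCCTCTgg
Rps6: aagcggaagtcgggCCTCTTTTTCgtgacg
Rps27: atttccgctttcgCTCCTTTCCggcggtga

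*Rpl15* had a log2 ratio of Enl-T1 over Enl-WT of 0.71, *Rps6* of -0.04 and *Rps27* of 4.89, so the genes shown differed widely in ratio. Of the other genes named above for the highest or lowest ratios, *Rpl36a* and *Rps27rt* had such a run. *Rpl10*, *Rpl9*, *Rpl4*, *Rpl7l1* and *Rpl5* had none, and *Rpl23a* was not among the matched genes.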

How the data were processed

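The deposited matrices hold raw UMI counts per gene and barcode, which the authors made from 10x 3′ libraries of pooled embryonic kidneys by aligning reads to mm10 with Cell Ranger 6.1.2. Barcodes with 1000 to 6000 genes and at most 10% mitochondrial UMIs were kept, as in the study's methods. Libraries were integrated with Seurat 5.3.0 (2000 variable genes, 30 components, resolution 0.5; within nephron and stroma 20 and 0.8), leaving out 374 symbols, among them the members and the genes of the lists. Class names were rebuilt here from markers, so departures from the study's own classes may stem from the naming. Doublets were left in. Scrublet (scanpy 1.11.5) called 123, 41 and 2 kept cells, the last too few to have worked, so the 301, 218 and 142 highest scores were removed as an alternative. Ratios used log2(CPM + 1), averaged over 4 lineages, for genes of at least 5 CPM, and a fold of 1.4. GENCODE M21 (GRCm38, the mm10 assembly) gave positions and sequences for 32158 genes, all 86 members included, with lengths as the median over a gene's transcripts. Members and lists were chosen with earlier results of these data known.

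Named genes were the 5 members of highest mean CPM; in each comparison up to 5 members above and 5 below the median of the set with the largest distance from it and on the same side in all 4 lineages; in each lineage up to 3 members on each side by the share of the set's UMIs, of the same sign in all 3 libraries; the stalk, 5S partners, paralogs with their partners and genes that encode no ribosomal protein; and up to 4 genes of highest mean CPM per pathway list. *Rps29*, *Rps21*, *Rpl38*, *Rps28*, *Rpl15*, *Pam16* and the partner rows were named after their values were seen. Some genes that these rules pick are not reported here.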

Additional observations from a re-analysis of the deposited data

Results flagged for a closer look

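The share of the set's UMIs in Enl-T1 TDI-11055 minus Enl-T1 was -1.15 percentage points in the nephron and 1.97 in the ureteric epithelium, so that the lineages moved in opposite directions. Each lineage had 1 library per group, and the difference between lineages was not tested.

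Rows outside the set also differed. *Gm10076*, a non-coding row that carries the coding sequence of *Rpl41*, had a log2 ratio of Enl-T1 over Enl-WT of 4.04 (4.48 and 89.8 CPM, and 181.6 in Enl-T1 TDI-11055). *Rpl36a-ps1* had a ratio of 2.65 (8.95 and 61.4 CPM). Both stood above their level in Enl-WT.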

How the results depend on the processing

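No paired analysis was possible because each group was 1 library, and for the same reason no library could be left out and no spread between replicates exists. Of 143 values recomputed under 12 planned settings and 3 chosen after seeing the data, 93 moved by less than the counting error or, for counts, stayed within 1.5 times, and 50 moved further. No value larger than its counting error changed sign. The causes were not tested.

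For Enl-T1 over Enl-WT, the difference in share (10.51 points) was 11.60 with 1500 to 5000 genes and at most 5% mitochondrial UMIs, 11.72 in cells of 5000 to 10000 UMIs, 10.57 without the highest doublet scores, 10.41 without paralogs and genes of no ribosomal protein, 10.15 in *Xist*-only and 11.20 in Y-only cells, 10.45 over all cells summed, 10.46 with clusters from all variable genes, and 10.54 without cells of over 1% haemoglobin. With the added settings it was 10.47 without cells of low mitochondrial share, 7.75 with unshared members only and 8.71 with members under 30% shared. The median log2 ratio (0.60) was 0.80 with totals that leave out the set, mitochondrial and haemoglobin genes, 0.93 with median-of-ratios factors, 0.66 with the stricter cell filter and in the depth window, 0.67 in Y-only cells and 0.56 with either set of less shared members. Under both other scalings 0 members were 1.4-fold lower, and with unshared members 23 lay 1.4-fold from the median.

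In the comparison of treated with untreated Enl-T1, the difference in share (0.01 points) was within its counting error and took either sign: it was 0.49 with the stricter cell filter, 1.72 in the depth window, -0.08 without doublet scores, -0.52 in *Xist*-only and -0.49 in Y-only cells, 0.56 over all cells summed, -0.23 with clusters from all variable genes, -0.38 without cells of low mitochondrial share, and -0.03 with either set of less shared members. The clusters from all variable genes included an erythroid-like one, outside the 4 lineages. It held 38 Enl-WT cells, 127 untreated and 569 treated Enl-T1 cells, so that setting leaves out many treated cells. The median log2 ratio (0.00) was -0.03 with totals without the set, 0.09 in the depth window and 0.05 over all cells summed. Members 1.4-fold higher numbered 2 in the depth window and 0 without paralogs. Members 1.4-fold lower numbered 0 with the stricter filter, without paralogs, over all cells summed and with either set of less shared members. Those 1.4-fold from the median numbered 0 with the stricter filter and without paralogs, and 1 over all cells summed and with either set of less shared members. Over all barcodes the shares were 15.3% in the wild type, 24.0% in untreated and 23.9% in treated Enl-T1.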
